A study of Mus musculus with 15 samples.

Results

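The MHC class II presentation genes described here are H2-Aa, H2-Ab1, H2-Eb1, H2-DMa, H2-DMb1, Cd74 and Ciita, 7 genes chosen by name and followed across 15 mice. Each gene was read from the probe set annotated with that gene alone, taking the brightest where there was a choice, and 6 of the 7 genes, among 19938 genes named in this way, had such a probe set. The probe set for H2-DMb1 is shared with its neighbour H2-DMb2, so H2-DMb1 has no value of its own below. The tissue was gonadal white fat, the pad beside the epididymis, from 8 Sfrp5 KO (Q27Stop) mice and 7 wild-type mice, with 1 Affymetrix array per mouse. All animals were C57BL6/J males, 12 weeks old, kept on high-fat food for 8 weeks from the age of 4 weeks. Sfrp5 encodes a secreted Wnt-binding protein made by adipocytes, and the knockout allele carries a premature stop. The values are log2 expression after RMA (robust multi-array average), a step that corrects background and puts the arrays on a common scale, so a difference of 1 is a doubling of the measured signal.

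MHC class II molecules carry peptides from the endosomes to the cell surface, where CD4 T cells read them. H2-Aa and H2-Ab1 encode the alpha and beta chains of the I-A molecule and H2-Eb1 the beta chain of I-E; Cd74 encodes the invariant chain that fills the groove during assembly, and H2-DMa and H2-DMb1 encode the chains of the H2-DM exchanger that swaps the last piece of it for a peptide. Ciita encodes the coactivator that switches the whole group on, without binding DNA itself: it docks on a protein complex assembled over conserved X and Y boxes upstream of class II genes. In fat, macrophages, dendritic cells and B cells carry most class II, and adipocytes have been reported to make it as well in obesity.

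Promoter sequences are given here as a description, and no link between them and the levels across mice was tested. Windows for 4 of the 7 genes were read from the RefSeq promoter table of GRCm38.p6: H2-Aa, H2-Eb1, H2-DMb1 and H2-DMa. No window of Cd74 was read, which does not show that the table holds none, and its promoter was not examined. The 3 stretches below, all on chromosome 17, run from 140 bases before the transcription start to 1 base before it, 5′ to 3′ on the gene's own strand; they are shown because H2-Eb1 and H2-DMb1 carry the X1 and Y letters of this promoter class side by side, while H2-Aa has the Y letters without an X1 match in the stretch. Capitals mark the X1 core ACNGATG, the Y box core ATTGG on either strand and, in H2-Aa, the palindrome TGACGTCA, whose letters were added after the windows had been read.
H2-Eb1, chr17:34305727-34305866, plus strand: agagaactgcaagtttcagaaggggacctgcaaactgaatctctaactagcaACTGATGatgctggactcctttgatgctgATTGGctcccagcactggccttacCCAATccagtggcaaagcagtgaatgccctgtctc
H2-DMb1, chr17:34153051-34153190, plus strand: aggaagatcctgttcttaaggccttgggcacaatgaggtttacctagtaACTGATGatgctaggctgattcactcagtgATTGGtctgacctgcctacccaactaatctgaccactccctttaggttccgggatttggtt
H2-Aa, chr17:34287824-34287963, minus strand: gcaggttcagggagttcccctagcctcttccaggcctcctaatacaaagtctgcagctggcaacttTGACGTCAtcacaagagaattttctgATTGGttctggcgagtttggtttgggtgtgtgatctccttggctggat

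Positions count from the transcription start, with -1 the base before it. In H2-Eb1 the X1 core began at -88 and the Y core at -59, with 22 bases between the matches, and a Y core on the other strand ended at -31. In H2-DMb1 the matches began at -91 and -61, with 23 bases between them. H2-Aa had the Y core at -48 and TGACGTCA at -74, and its one X1 match lay at -232 on the other strand, outside the stretch shown. The whole window of the table, 250 bases before to 50 after the start, was searched on both strands in all 32851 promoter windows of the table. The Y core alone was common, in 37.4% of windows, and the X1 core was in 9.85%. An X1 core followed on the same strand by a Y core, 5 to 30 bases away, was in 63 windows, 0.192%. Those windows belonged to 61 genes, and 10 of the 61 have H2 names; besides H2-Eb1 and H2-DMb1, H2-DMb2 and H2-Eb2 were among them, with 23 and 22 bases between the matches. TGACGTCA was in 1.79% of windows. H2-DMa has a pair of windows, and the only match in them was a Y core at -198 in one. A match describes the letters in the window and no more. The lack of a match to these short cores does not show that a box is absent.

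Sfrp5 itself was read first as the check on genotype. Its level was 6.69 ± 0.40 in KO fat and 7.92 ± 0.24 in wild-type fat (log2, SD, n = 8 and 7), a difference of -1.23 (SE 0.16), and the groups did not overlap (limma adjusted p = 0.0200; exact permutation p = 0.000155, the smallest that 6435 splits can give). With 1 array left out at a time the difference stayed between -1.29 and -1.13, but the limma adjusted p was between 0.0501 and 0.0670 without KO replicate 2, 5 or 8 or wild-type replicate 2, 3, 4 or 5, and under 0.05 without each of the others. Over all 35557 probe sets 12 passed an adjusted p of 0.05, which is 0.0337%. The 6 adipocyte marker genes lay between percentiles 96.3 and 99.9 of level among named genes. KO replicate 2 stood apart in its epididymis markers, with a mean over 7 genes of 11.19 against 5.68 to 6.93 in the other KO arrays and 5.76 to 6.86 in the wild-type arrays. A number in the array labels, of unstated meaning, was 640 or higher in KO replicates 7 and 8 and in all wild-type arrays, and lower in KO replicates 1 to 6. The labels do not say whether litters were shared, and the p-values measure only the spread between these mice.

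H2-Aa, the I-A alpha chain, ran from 10.61 to 11.73 with a median of 10.95 in the 8 KO arrays, and from 10.64 to 11.19 with a median of 10.80 in the 7 wild-type arrays. KO replicate 8 was the highest of all 15 arrays and wild-type replicate 2 the next; the groups overlapped. The KO mean was 10.97 ± 0.34 and the wild-type mean 10.84 ± 0.17, a difference of 0.13 (SE 0.14, 95% interval -0.15 to 0.42; limma adjusted p = 0.824, exact permutation p = 0.425).

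H2-Ab1, the I-A beta chain, ran from 10.90 to 12.06 with a median of 11.12 in KO fat, and from 10.83 to 11.51 with a median of 10.87 in wild-type fat. The order at the top was the same as for H2-Aa, with KO replicate 8 first and wild-type replicate 2 second. The KO mean was 11.22 ± 0.37 and the wild-type mean 10.98 ± 0.24, a difference of 0.23 (SE 0.15, 95% interval -0.10 to 0.56; limma adjusted p = 0.688, exact permutation p = 0.191).

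H2-Eb1, whose promoter is printed first above, ran from 9.44 to 10.71 with a median of 9.76 in KO fat, and from 9.57 to 10.14 with a median of 9.70 in wild-type fat. Its KO mean was 9.82 ± 0.41 and its wild-type mean 9.75 ± 0.18, the smallest difference of the 6 genes at 0.07 (SE 0.16, 95% interval -0.26 to 0.40; limma adjusted p = 0.929, exact permutation p = 0.747). The KO values lay on both sides of the wild-type mean, with 4 of 8 above it, and without KO replicate 8 the difference was -0.06.

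Cd74, the invariant chain, ran from 9.63 to 11.11 with a median of 9.98 in KO fat, and from 9.45 to 10.26 with a median of 9.66 in wild-type fat. KO replicate 8 and wild-type replicate 2 were again first and second among all arrays, and the ranges overlapped. The KO mean was 10.05 ± 0.48 and the wild-type mean 9.74 ± 0.28, a difference of 0.31 (SE 0.19, 95% interval -0.10 to 0.71; limma adjusted p = 0.657, exact permutation p = 0.156).

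H2-DMa, the alpha chain of the peptide exchanger, had the largest difference of the 6. It ran from 8.20 to 9.95 with a median of 8.66 in KO fat, and from 7.86 to 8.71 with a median of 8.44 in wild-type fat. KO replicate 8 was again the highest, KO replicate 7 the second at 9.02, and wild-type replicate 7 the lowest; wild-type replicate 2, second for the chains above, was only the seventh here at 8.62. The KO mean was 8.78 ± 0.52 and the wild-type mean 8.41 ± 0.27, with 7 of 8 KO mice above the wild-type mean. The difference of 0.37, a 1.29-fold higher signal (SE 0.20, 95% interval -0.06 to 0.80), did not pass the test (limma adjusted p = 0.590, exact permutation p = 0.102).

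Ciita, the coactivator, ran from 6.97 to 7.70 with a median of 7.23 in KO fat, and from 6.94 to 7.40 with a median of 7.14 in wild-type fat. KO replicates 8, 5 and 7 were the highest arrays, and wild-type replicate 2 came after them. The KO mean was 7.27 ± 0.25 and the wild-type mean 7.14 ± 0.14, a difference of 0.13 (SE 0.10, 95% interval -0.09 to 0.35; limma adjusted p = 0.755, exact permutation p = 0.250). Its probe set lay at percentile 49.7 of level among named genes.

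**Figure D1:**
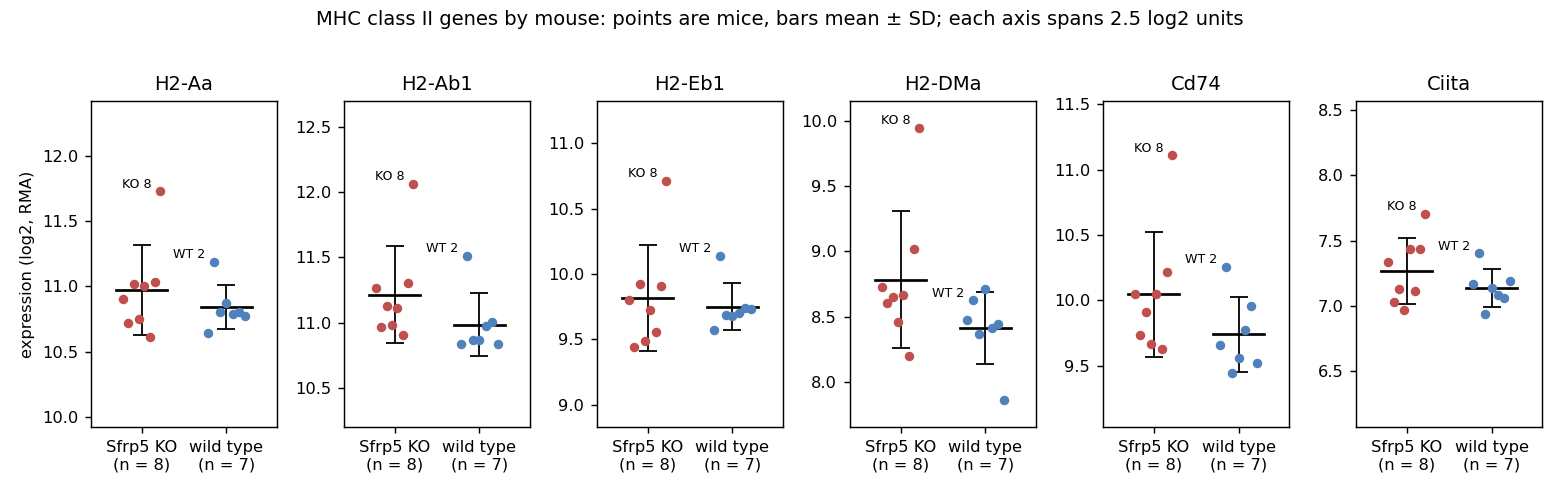
Expression (log2, RMA) of the 6 measured MHC class II genes in each mouse, 8 Sfrp5 KO mice on the left of each panel and 7 wild-type mice on the right; points are mice, and bars are the mean ± SD. Each vertical axis has its own range of the same length. KO replicate 8 is the highest point in every panel, and the groups overlap in every panel.

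In all, 0 of the 6 genes passed an adjusted p of 0.05 and 0 of 6 had an unadjusted p under 0.05. At the unadjusted threshold were 9.97% of all probe sets and 1333 of the 19938 named genes. No group pair was without overlap, against 0.217% of all probe sets. All 6 differences were above 0, with a median of 0.18, while 44.8% of all named genes were above 0 with a median of -0.01. The 6 genes do not vary independently, so this count is not 6 separate observations. The intervals reach from -0.26 at the lower end for H2-Eb1 to 0.80 at the upper end for H2-DMa, so a change of either sign remains within them, and a p above the threshold does not show that the genotypes were alike. In a whole tissue, fewer cells of a type and less RNA per cell cannot be told apart.

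The spread between mice was wide for most of these genes. The SD within genotype was 0.43 for H2-DMa and 0.40 for Cd74, at percentiles 95.8 and 95.1 of all named genes, and 0.32 for both H2-Ab1 and H2-Eb1. Ciita was the least variable, with an SD of 0.21, at percentile 73.9. Without KO replicate 8 the SD over KO mice was 0.25 for H2-DMa, against 0.52 with it, and 0.22 for Cd74, against 0.48 with it. The level in KO replicate 8 exceeded the mean of the other KO mice 2.51-fold for H2-DMa, 2.32-fold for Cd74, 2.03-fold for H2-Eb1, 1.96-fold for H2-Ab1, 1.82-fold for H2-Aa and 1.41-fold for Ciita. Wild-type replicate 2 exceeded the other wild-type mice 1.53-fold for H2-Ab1 and 1.52-fold for Cd74, and only 1.19-fold for H2-DMa.

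The size of the genotype difference turned on which arrays entered. With KO replicate 8 left out, 5 of 6 differences were above 0 and the median difference was 0.09. Leaving out KO replicate 8 and wild-type replicate 2 together gave a median of 0.15, with 6 of 6 above 0, and H2-Eb1 had a difference of 0.01. In that fit 2 of 6 genes had an unadjusted limma p under 0.05, as did 3034 of all 35557 probe sets. Their lowest limma adjusted p was 0.462. Without KO replicate 2 and wild-type replicate 4, the arrays with the highest epididymis markers in each genotype, the median was 0.21. Within the label numbers of 640 or higher, only KO replicates 7 and 8 stand against the 7 wild-type arrays, and the median was 0.63. All 6 genes had an unadjusted limma p under 0.05, as did 3392 of all 35557 probe sets in that fit. The lowest limma adjusted p of the 6 was 0.347. KO replicate 8, the highest array for all 6 genes, is among those KO arrays, and the 6 genes do not vary independently. With the label number as a block in the fit over all arrays the median was the same and the lowest adjusted p was 0.226. With that block 6 of 6 again had an unadjusted limma p under 0.05, as did 3498 of all 35557 probe sets. KO replicates 1 to 6 against the wild-type arrays gave a median of 0.05, with 4 of 6 above 0. No fit called any of the 6 genes at an adjusted p of 0.05. What the label number records was not tested.

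Across mice the 6 genes went up and down together. With each genotype's mean subtracted, so that no genotype difference enters, Pearson's r between pairs of genes over the 15 arrays had a median of 0.86, from 0.70 to 0.97. All 15 pairs passed a permutation test of r at an adjusted p of 0.05 (labels permuted within genotype 100000 times, adjusted over the 15 pairs), and 14 passed with Spearman's rho; H2-Eb1 with H2-DMa had rho 0.52 and an adjusted p of 0.0582. The closest pairs were H2-Aa with H2-Eb1, at r = 0.97 and rho = 0.81 (adjusted permutation p = 0.000638), and H2-Ab1 with Cd74, at r = 0.97 and rho = 0.93 (adjusted permutation p = 0.00015). H2-DMa with Ciita was the loosest, at r = 0.70 and rho = 0.58 (adjusted permutation p = 0.0103).

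Part of this rested on the arrays at the top. With KO replicate 8 left out the median r was 0.70, and 11 of 15 pairs passed. With wild-type replicate 2 left out as well it was 0.63, from 0.36 to 0.89, and 2 pairs still passed on r: H2-Ab1 with Cd74, at 0.89 (adjusted permutation p = 0.00225), and H2-Aa with H2-Eb1, at 0.85 (adjusted permutation p = 0.0470). On rho 8 of the 15 pairs passed in those 13 arrays. Leaving out the 2 arrays farthest from the median of the first gene took H2-DMa with Ciita to 0.42 and H2-Eb1 with H2-DMa to 0.41. H2-Aa with H2-Eb1 stayed at 0.86 and H2-Ab1 with Cd74 at 0.90. H2-Aa with Cd74 was at 0.64, near H2-Ab1 with H2-DMa at 0.65. Within genotype the median r was 0.96 over the 8 KO mice, from 0.83 to 0.99, and 0.71 over the 7 wild-type mice, from 0.16 to 0.96. By the permutation test 15 of 15 pairs passed in the KO mice and 0 of 15 in the wild-type mice, on r and on rho; the difference between the genotypes was not tested. In the wild-type mice, the pairs with H2-DMa were the low ones, from 0.16 with Ciita to 0.41 with Cd74; H2-DMa there had its lowest value in wild-type replicate 7, a mouse with the second highest wild-type level of Ciita. Among the 9 arrays with a label number of 640 or higher the median r was 0.77 and 1 of 15 pairs passed the permutation test, H2-Ab1 with Cd74.

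**Figure D2:**
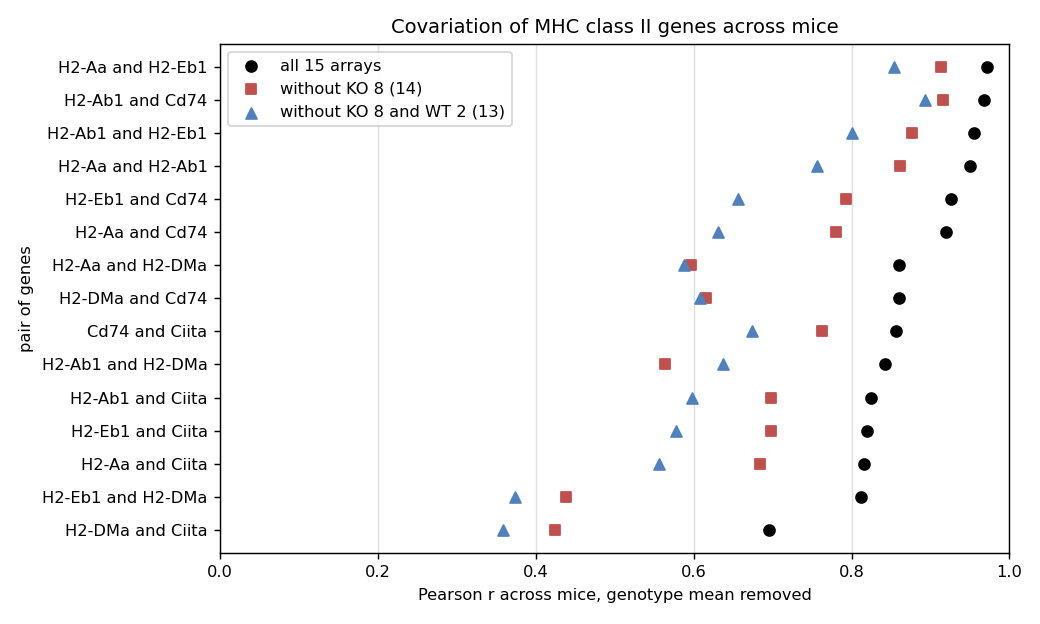
Pearson r between each pair of the 6 genes across mice, genotype mean removed: circles for all 15 arrays, squares without KO replicate 8, triangles without KO replicate 8 and wild-type replicate 2. The medians are 0.86, 0.70 and 0.63, and the pairs with H2-DMa and Ciita fall lowest, to 0.36.

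The other genes of the pathway were taken from lists by role. Of the 54 measured genes in 8 such lists, 0 passed an adjusted p of 0.05 and 4 had an unadjusted p under 0.05. The shares to set beside this are 1333 of the 19938 named genes and the 9.97% of all probe sets given above. Those 4 were H2-Ea, Marchf8, Jak1 and B2m.

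Among the remaining class II genes, 4 of 5 were measured and 1 had a difference above 0, with a list median of -0.01. H2-Ea encodes the I-E alpha chain, which mice of this strain background are known not to make. Its level was 5.14 ± 0.16 in KO fat and 5.31 ± 0.07 in wild-type fat, low in every array, with values from 4.92 to 5.40 in KO fat and from 5.22 to 5.43 in wild-type fat (difference -0.18, limma adjusted p = 0.396). H2-Oa and H2-Ob encode the chains of H2-O, the inhibitor of H2-DM. H2-Oa averaged 6.49 ± 0.26 in KO fat and 6.42 ± 0.10 in wild-type fat (limma adjusted p = 0.882), and H2-Ob averaged 7.03 ± 0.17 in KO fat and 7.04 ± 0.13 in wild-type fat (limma adjusted p = 0.974). None of the 4 followed the 6 genes closely: their r with the mean of the 5 genes other than Ciita ran from 0.08 for H2-Oa to 0.46 for H2-Ob.

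The endosomal proteases cut the invariant chain and the antigens into peptides, and they are listed here with Ifi30, the thiol reductase that opens disulphide bonds in antigens. Of 8 such genes 6 had a difference above 0, with a list median of 0.02. Ctsh had the lowest p of the list, at 9.14 ± 0.23 in KO fat and 9.04 ± 0.13 in wild-type fat (limma adjusted p = 0.809). Ctsd averaged 11.81 ± 0.31 in KO fat and 11.77 ± 0.14 in wild-type fat, and Ctsl 11.57 ± 0.14 in KO fat and 11.59 ± 0.10 in wild-type fat. Across mice this list had the largest share of genes that followed class II among the 8 pathway lists: all 8 genes had r above 0.6 with the mean of the 5 genes, from 0.66 for Ctsb to 0.93 for Ctss, the protease that makes the last cuts in the invariant chain, against 7.5% of the 19932 other named genes. In the 13 arrays without KO replicate 8 and wild-type replicate 2, 2 of 8 were above 0.6, Ctss at 0.83 and Ctsh at 0.61, against 3.45% of named genes. These r are a description over mice that share their arrays, and are given with no p.

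The factors that bind the X and Y boxes printed above, RFX, CREB and NF-Y, are expressed in nearly all cells. Of their 7 genes 6 had a difference above 0, with a list median of 0.03. Nfyc averaged 7.95 ± 0.09 in KO fat and 7.88 ± 0.10 in wild-type fat (limma adjusted p = 0.745), Nfya 8.11 ± 0.17 in KO fat and 8.06 ± 0.07 in wild-type fat, and Creb1 9.38 ± 0.11 in KO fat and 9.47 ± 0.16 in wild-type fat. None of the 7 reached r 0.6 with the class II genes: the highest were Rfxap at 0.58 and Nfya at 0.54, and Nfyb was the lowest at -0.19.

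Interferon gamma induces Ciita through the kinases Jak1 and Jak2. Of the 8 genes of that list 7 were measured, and 2 had a difference above 0. Jak1 averaged 11.40 ± 0.15 in KO fat and 11.55 ± 0.08 in wild-type fat, and 0 of 8 KO mice were above the wild-type mean (difference -0.16, SE 0.07, limma adjusted p = 0.453). Jak2 averaged 9.33 ± 0.14 in KO fat and 9.41 ± 0.08 in wild-type fat. Socs1, the inhibitor induced by the same signal, averaged 7.34 ± 0.15 in KO fat and 7.39 ± 0.11 in wild-type fat. Only the receptor gene Ifngr2 was above 0.6 with the class II genes, at 0.79, and at 0.58 without KO replicate 8 and wild-type replicate 2.

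MHC class I presentation, which shows peptides to CD8 T cells, had 9 of 11 listed genes measured and 6 differences above 0. B2m, the light chain of class I, averaged 12.93 ± 0.11 in KO fat and 12.79 ± 0.06 in wild-type fat, with 7 of 8 KO mice above the wild-type mean (difference 0.13, SE 0.05, limma adjusted p = 0.410). Nlrc5, the class I counterpart of Ciita, averaged 9.80 ± 0.19 in KO fat and 9.70 ± 0.19 in wild-type fat (limma adjusted p = 0.803). Erap1, a peptide-trimming enzyme, averaged 8.54 ± 0.10 in KO fat and 8.48 ± 0.08 in wild-type fat. With the class II genes, 2 of the 9 had r above 0.6, Psmb10 at 0.89 and Tapbp at 0.77, and 0 of 9 without KO replicate 8 and wild-type replicate 2, with Psmb10 at 0.58 and Tapbp at 0.42. Over all arrays Nlrc5 was at -0.02 and B2m at 0.18.

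Among the genes that set how long class II stays at the surface or clear the invariant chain, 1 of 4 differences was above 0. Marchf8, a ubiquitin ligase for membrane proteins, averaged 8.03 ± 0.12 in KO fat and 8.16 ± 0.05 in wild-type fat. Of the KO mice, 2 of 8 were above the wild-type mean (difference -0.13, limma adjusted p = 0.472). Across mice its r with the class II genes was -0.43, while Marchf1 of the same list was at 0.41. Cd83, which opposes such ligases, averaged 7.57 ± 0.23 in KO fat and 7.63 ± 0.12 in wild-type fat, and Sppl2a, the protease for the membrane stub of the invariant chain, had a difference of 0.02 (SE 0.06, limma adjusted p = 0.943). Of the 6 costimulation genes 2 differences were above 0. Icam1 averaged 7.42 ± 0.18 in KO fat and 7.53 ± 0.10 in wild-type fat, Cd80 6.59 ± 0.18 in KO fat and 6.69 ± 0.15 in wild-type fat, and Cd40 7.47 ± 0.16 in KO fat and 7.52 ± 0.14 in wild-type fat. Cd86 was the costimulation gene that followed class II, at r = 0.81, and at 0.73 without KO replicate 8 and wild-type replicate 2.

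The CD4 T cell list had 4 of 9 differences above 0. Cd3g averaged 7.08 ± 0.36 in KO fat and 6.90 ± 0.17 in wild-type fat, Cd4 6.14 ± 0.14 in KO fat and 6.25 ± 0.22 in wild-type fat, and Il2ra 6.64 ± 0.27 in KO fat and 6.75 ± 0.20 in wild-type fat. No gene of the list was above r 0.6 with the class II genes over all arrays.

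Of the marker lists of cells that carry class II, the macrophage and dendritic list means moved with these genes across mice over all arrays. Not every gene of either list did so. The B cell list mean did not pass the test. The macrophage list mean, over 13 genes, ran from 8.70 to 9.76 in KO fat and from 8.82 to 9.29 in wild-type fat, and the dendritic cell list mean, also over 13 genes, from 6.79 to 7.34 in KO fat and from 6.88 to 7.13 in wild-type fat. In both lists KO replicate 8 was the highest KO array and wild-type replicate 2 the highest wild-type array; the same mice were highest in their genotype for the class II genes, except that wild-type replicate 4 was above wild-type replicate 2 for H2-DMa. The B cell list mean, over 9 genes, ran from 6.06 to 6.34 in KO fat and from 6.05 to 6.42 in wild-type fat, and its highest arrays were KO replicate 1 and wild-type replicate 5. The part of cell number in the levels above was not tested.

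Between genotypes 11 of 13 macrophage genes had a difference above 0, with a list median of 0.09, and none passed. Adgre1, the F4/80 antigen, averaged 9.12 ± 0.54 in KO fat and 8.93 ± 0.22 in wild-type fat (limma adjusted p = 0.829). C1qa, a complement chain made by tissue macrophages, averaged 8.91 ± 0.48 in KO fat and 8.60 ± 0.34 in wild-type fat (limma adjusted p = 0.670). Cd14 averaged 7.20 ± 0.21 in KO fat and 7.05 ± 0.16 in wild-type fat. Cd163, a haemoglobin scavenger receptor of resident macrophages, had the opposite sign, at 9.01 ± 0.26 in KO fat and 9.23 ± 0.22 in wild-type fat (limma adjusted p = 0.585).

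Of 13 dendritic cell genes 7 had a difference above 0. Itgax, the CD11c integrin, varied widely, at 7.01 ± 0.65 in KO fat and 6.96 ± 0.33 in wild-type fat (limma adjusted p = 0.968). Xcr1, a receptor of cross-presenting dendritic cells, averaged 6.04 ± 0.28 in KO fat and 5.85 ± 0.30 in wild-type fat, and Batf3, a factor those cells need, 7.56 ± 0.18 in KO fat and 7.46 ± 0.12 in wild-type fat. Flt3, the growth factor receptor of the lineage, averaged 6.61 ± 0.23 in KO fat and 6.74 ± 0.18 in wild-type fat. In the B cell list 6 of 9 were above 0, and Cd79a averaged 5.32 ± 0.30 in KO fat and 5.29 ± 0.39 in wild-type fat. Cd79b averaged 6.71 ± 0.12 in KO fat and 6.63 ± 0.17 in wild-type fat, Ms4a1 5.86 ± 0.14 in KO fat and 5.95 ± 0.26 in wild-type fat, and Bank1 7.58 ± 0.25 in KO fat and 7.50 ± 0.21 in wild-type fat.

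**Figure D3:**
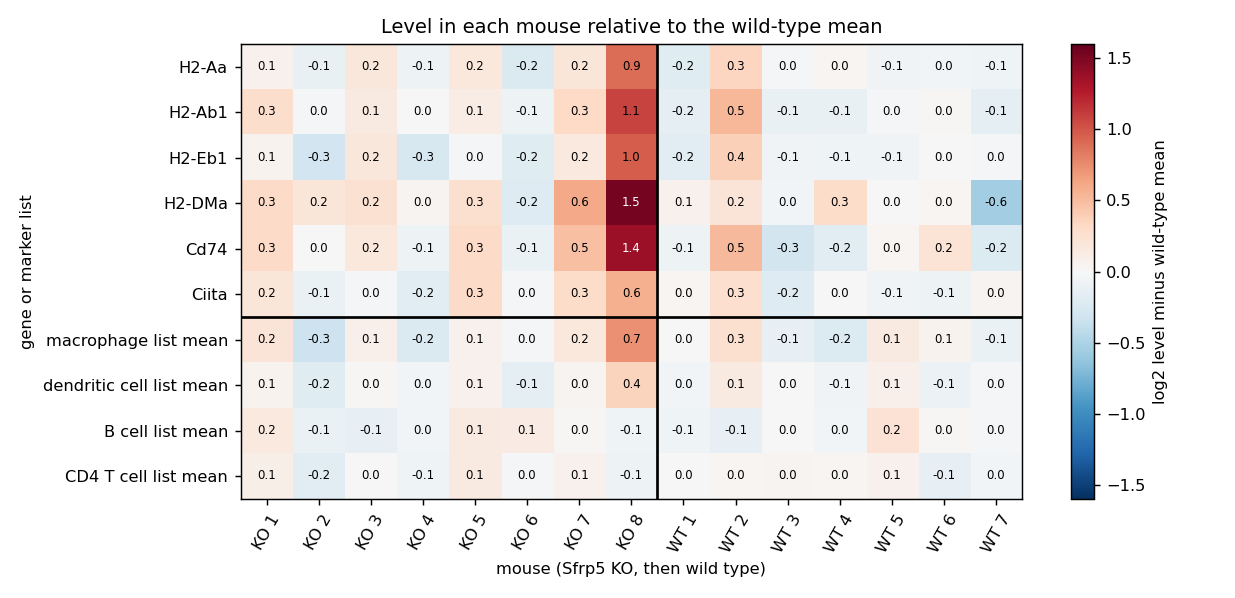
Level of each MHC class II gene, and of the mean of 4 marker lists, in each mouse as the difference from the wild-type mean (log2), Sfrp5 KO mice on the left and wild-type mice on the right of the vertical line. KO replicate 8 and, less so, wild-type replicate 2 are high for the class II genes and for the macrophage list mean, and not for the B cell list mean.

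The relation was tested for the 6 genes against 10 marker list means, 60 relations in all, with genotype means removed and p-values adjusted over the 60. With the macrophage list r ran from 0.73 for H2-DMa to 0.92 for Cd74, and 5 of 6 passed the permutation test on r and 4 of 6 on rho. With the dendritic list r ran from 0.75 for H2-DMa to 0.91 for H2-Aa, and again 5 of 6 passed on r and 4 on rho. H2-DMa was the gene short of the threshold on r in both lists (adjusted permutation p = 0.0626 and 0.0619). Cd74 with the macrophage list had the highest rho, 0.90 (adjusted permutation p = 0.0018), and kept r = 0.85 without the 2 arrays farthest from the list's median, KO replicates 2 and 8. With the B cell list r ran from -0.28 to -0.03 and none passed. With the CD4 T cell list r ran from -0.01 to 0.31 and none passed.

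Without KO replicate 8 and wild-type replicate 2, r ran from 0.28 to 0.77 with the macrophage list and from 0.29 to 0.70 with the dendritic list, and none of these 12 relations passed. In the same 13 arrays r ran from 0.34 to 0.65 with the CD4 T cell list and from -0.03 to 0.36 with the B cell list. Without KO replicate 8 alone, H2-Ab1, H2-Eb1 and Cd74 passed with the macrophage list (adjusted permutation p = 0.0177, 0.0334 and 0.0177). H2-Aa, H2-Ab1 and H2-Eb1 passed with the dendritic list (adjusted permutation p = 0.0334, 0.0334 and 0.0338), and the other relations did not. In the values as deposited and after quantile normalization, every gene but H2-DMa passed with both lists. Without KO replicate 2 and wild-type replicate 4, every gene passed with both. Among the 9 arrays with a label number of 640 or higher, r ran from 0.59 to 0.93 with the macrophage list, with 0 of 6 passing the permutation test, and from -0.59 to -0.24 with the B cell list. Of the other lists, the neutrophil list passed with 2 of 6 genes on r, H2-Ab1 at 0.59 and H2-Eb1 at 0.58, and the adipocyte, endothelial, progenitor, mesothelial and epididymis lists with 0 of 6 on r, although the endothelial list passed with 4 of 6 on rho. Both neutrophil calls were lost in the values as deposited (r = 0.29 and 0.44, adjusted permutation p = 0.505 and 0.311) and without KO replicate 8 and wild-type replicate 2 (r = 0.44 and 0.55, adjusted permutation p = 0.381 and 0.253). They were also lost without KO replicate 2 and wild-type replicate 4 (adjusted permutation p = 0.119 and 0.0822). After quantile normalization both were kept (adjusted permutation p = 0.015 for each). H2-Eb1 passed without KO replicate 8 alone and in the 9 arrays (adjusted permutation p = 0.0387 and 0.0234), and H2-Ab1 did not (adjusted permutation p = 0.0705 and 0.369).

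**Figure D4:**
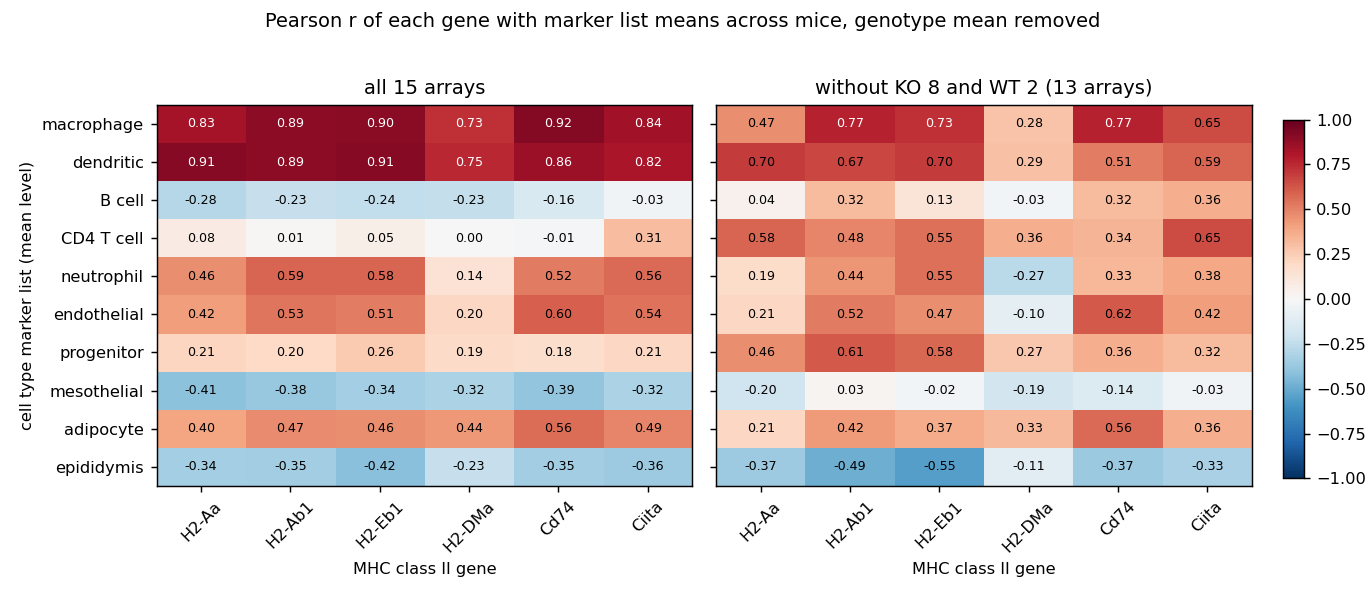
Pearson r across mice of each MHC class II gene with the mean level of 10 cell type marker lists, genotype mean removed, over all 15 arrays on the left and without KO replicate 8 and wild-type replicate 2 on the right. The macrophage and dendritic rows lie between 0.73 and 0.92 on the left and between 0.28 and 0.77 on the right; the B cell row lies under 0 on the left.

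Within these lists the class II genes followed some markers and not others. Over all arrays 11 of 13 macrophage genes had r above 0.6 with the mean of the 5 genes, Cd68 at 0.92 and Lyz2 at 0.91 highest, while Cd163 was at 0.19 and Mertk at -0.20. Of the dendritic genes 6 of 13 were above 0.6, namely Irf8 and Itgax at 0.92, Clec10a at 0.82, Cd209a at 0.76, Flt3 at 0.65 and Batf3 at 0.63. Zbtb46 was at -0.10 and Ccr7 at -0.32, and without KO replicate 8 and wild-type replicate 2 they were at 0.28 and 0.02. No B cell gene of 9 was above 0.6; the highest was Cd22 at 0.14. In the same 13 arrays, 4 of 13 macrophage genes and 3 of 13 dendritic genes were above 0.6.

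Among all 19932 other named genes, those most like the class II genes were ranked by r with the mean of the 5 genes, over 15 arrays with genotype means removed. The first was Cyba, a subunit of the phagocyte NADPH oxidase, at 0.97, followed by Tyrobp, the adaptor of myeloid activating receptors, at 0.97, Arhgap30, a GTPase-activating protein, at 0.96, and Lgals3, galectin-3, at 0.96. Capg, an actin-capping protein of macrophages, and Clec4a2, a C-type lectin receptor of myeloid cells, were at 0.95. Atf3, a stress-induced transcription factor, Arpc5, a subunit of the Arp2/3 complex, and Il7r, a cytokine receptor chain, were at 0.95, and Gla, the lysosomal alpha-galactosidase, at 0.94. The median r of all named genes was -0.01. Without KO replicate 8 and wild-type replicate 2, Tyrobp at 0.86 and Arhgap30 at 0.87 remained among the 10 highest, while Gla was at 0.61.

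Ciita had a different set of nearest genes. Ly9, a SLAM family receptor of lymphocytes and some myeloid cells, and Lrmp, a membrane protein first described in lymphoid cells, were both at r = 0.95. Stim2, a calcium sensor of the endoplasmic reticulum, and Myo1f, a myosin of blood cells, were at 0.92, and Myo9b, another myosin, at 0.92. Without KO replicate 8 and wild-type replicate 2, 3 of these 5 remained among the 5 highest, Lrmp at 0.94, Ly9 at 0.91 and Stim2 at 0.90, while 2 of 10 remained for the class II mean.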

How the data were processed

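The authors deposited log2 expression values for 35557 probe sets on 15 arrays. RMA is named for them in the submitters' processing notes, beside Affymetrix Expression Console 1.1.2800.19935, affy 1.18 and limma, whose roles are not stated. The sources used here give no genome build. Probe sets carried 1 symbol in 21789 cases, several in 1621 and none in 12147; only the first kind was named, through the RefSeq table of GRCm38.p6, which matched 21698. Scanner files were not used here, so detection above background could not be assessed, and the number of arrays limits the precision. Array medians ran from 6.99 to 7.07.

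Genotypes were compared by a two-sided moderated test in limma 3.58.1 (R 4.3.3) with no covariate, with Benjamini-Hochberg adjustment across every probe set and a threshold of 0.05. Single genes were also compared by an exact two-sided permutation of the genotype labels, unadjusted. SEs and intervals are limma's. Correlations were computed in Python 3.11.15 and tested with 100000 permutations within genotype, two-sided. The smallest p these can give is 1e-05. The fit and the correlation test were tested on simulated data.

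The genes and lists were chosen with earlier results of these data known. Named are the 7 members, Sfrp5, the 3 genes with the lowest p in each list, Adgre1, Itgax, Flt3, Cd79a and H2-Ea, and the 10 and 5 genes most like the members; genes named beside an r were picked after their values were seen. Genes of the adipocyte, mesothelial, progenitor, endothelial, neutrophil and epididymis lists are given as lists. Between genotypes, differences above 0 were 4 of 6 adipocyte, 7 of 7 mesothelial, 6 of 6 progenitor, 0 of 6 endothelial, 0 of 6 neutrophil and 7 of 7 epididymis genes, with 0 passing. The mean of the members other than Ciita holds 5 genes, since H2-DMb1 had no probe set of its own; nor had some listed genes, among them H2-DMb2, H2-K1 and H2-D1, and some items are not reported here. Wild-type arrays hold positions 1 to 7 in the labels and KO arrays 8 to 15, so order and genotype cannot be told apart. Alternatives were other normalizations, filters, variance models, blocks and arrays left out.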

Additional observations from a re-analysis of the deposited data

Results flagged for a closer look

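In 14 of 94 groups of values tested, the highest or lowest array lay far from its nearest neighbour relative to the range of its group (Dixon's criterion); chance flags about 1 in 20 groups. KO replicate 8 gave 6 of the 14: it was the highest KO array for H2-Aa at 11.73, H2-Ab1 at 12.06, H2-Eb1 at 10.71, H2-DMa at 9.95 and Cd74 at 11.11 (log2), and for the dendritic list mean at 7.34. The next KO arrays were at 11.04, 11.30, 9.93, 9.02 and 10.22 for these 5 genes. Wild-type replicate 2 gave 4: it was the highest wild-type array for H2-Aa at 11.19, H2-Ab1 at 11.51, H2-Eb1 at 10.14 and Itgax at 7.65. Because the genes move together, these flags are not separate observations.

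Wild-type replicate 7 was the lowest wild-type array for H2-DMa at 7.86, with the next at 8.36. KO replicate 1 was the lowest KO array for B2m at 12.69 and the highest for Il2ra at 7.21. Wild-type replicate 5 was the highest wild-type array for the B cell list mean at 6.42.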

How the results depend on the processing

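None of the 6 class II genes and none of the 54 pathway genes passed in any of the fits. The replicate numbers do not pair the mice (correlations of same-numbered arrays' deviations from -0.12 to 0.25; 1 of 7 KO and 0 of 7 wild-type arrays correlated best with their own number). The fit with the replicate block leaves out KO replicate 8, which has no wild-type number to match, so its differences are those without that array. With the replicate block 0 genes were called here and 0 among all probe sets, 5 of 6 class II differences were above 0 as without KO replicate 8 alone, and Sfrp5 had an adjusted p of 0.30. Over all probe sets, the count of 12 was 6 and 7 after quantile normalization and median centring, 26 without dim probe sets, 48 with an intensity trend, 25 with array weights, and from 0 to 133 with 1 array left out; Sfrp5 lost its call in 7 of those 15 fits. The covariation count of 15 pairs was 2 without KO replicate 8 and wild-type replicate 2, with a median r of 0.63, and 1 in the 9 arrays with a label number of 640 or higher, while 15 passed in the values as deposited, after quantile normalization, and without KO replicate 2 and wild-type replicate 4. Of the 10 genes most like the members, 2 were shared without KO replicate 8 and wild-type replicate 2, and 6 without KO replicate 2 and wild-type replicate 4. The settings for the most alike genes, the 9 arrays and leaving out KO replicate 8 alone from the correlations were chosen after seeing the data.

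Small differences changed sign, and apart from the replicate block the cause was not tested. After quantile normalization Ctsd was -0.0208 and Sppl2a -0.0336. With array weights Cd79a was -0.0202. With the replicate block, as with KO replicate 8 left out, H2-Eb1 was -0.0581, Ctsd -0.0233 and Itgax -0.145. With KO replicates 7 and 8 as the only KO arrays, and equally with the label number as a block, H2-Oa was -0.0051, Ctsl 0.10, Cd83 0.0660, Erap1 -0.0202, Icam1 0.0471, Cd40 0.0130, Cd3g -0.0673, Flt3 0.0415, Bank1 -0.0819 and Cd79a -0.173. Without KO replicates 7 and 8, H2-Aa was -0.0042, H2-Eb1 -0.0937, Ctsd -0.0519, Sppl2a -0.0001 and Itgax -0.175. Without KO replicate 2 and wild-type replicate 4, Ctsl was 0.0030, Socs1 0.0178, Cd40 0.0068 and Cd79a -0.0136. Without KO replicate 8 and wild-type replicate 2 Itgax was -0.0306, and with a gene's probe sets averaged Nlrc5 was -0.0148. With 1 array left out at a time, H2-Ob ran from -0.0502 to 0.0244, Ctsl ran from -0.0413 to 0.0134, Cd79a ran from -0.0545 to 0.144, Itgax ran from -0.145 to 0.167, Sppl2a ran from -0.0034 to 0.0509, Cd83 ran from -0.0983 to 0.0034, H2-Eb1 ran from -0.0581 to 0.134, Ctsd ran from -0.0233 to 0.120.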
